A study of Mus musculus with 6 samples.

Results

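Insulin-like growth factors reach T cells through a small set of proteins whose genes are described here in activated mouse CD8 T cells. The 6 genes are Igfbp4, Igf1r, Igf2r, Insr, Irs1 and Irs2, out of 25655 genes listed for each library. They were chosen by name, as a binding protein, the receptors and the adaptors of this axis, with the CPM of the same Utx KO and WT libraries already known. Igfbp4 and Igf1r had been seen there among the largest differences. Their differences between genotypes are therefore given as a description with a standard error and without a p-value.

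The 3 libraries labelled Utx KO and the 3 labelled WT came from CD8 T cells of the spleens of female C57BL/6 mice; Utx is the histone H3K27 demethylase encoded by Kdm6a. In both genotypes naive CD8 T cells were activated for 2 days on plate-bound antibodies to TCR-β (3 µg/ml) and CD28 (1 µg/ml) with interleukin 2 (10 ng/ml), and then grew for 3 days in interleukin 2 alone before harvest at day 5. The labels name biological replicates 1 to 3 and do not say whether these were separate animals. The p-values for other genes therefore measure only how much these libraries spread. The sources used here give neither the deleted exons, nor what drives the deletion, nor the age of the mice.

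Each library, made from 500 ng of total RNA, held 1619085 to 2529113 reads from the 3' ends of polyadenylated transcripts, and values are CPM, the reads of a gene scaled to a common total per library. Kdm6a was at 27.8, 39.4 and 31.5 CPM in Utx KO libraries and at 44.3, 49.3 and 53.6 CPM in WT libraries, which did not overlap. Its log2 fold change was −0.57 (limma adjusted p = 0.0123), and the call was lost with DESeq2 (adjusted p = 0.0985) and without Utx KO replicate 1 (0.0554), WT replicate 2 (0.0528) or WT replicate 3 (0.0708). A 3' tag outside the deleted part would not check the genotype. All 8 T-cell markers had reads, with sums of 2440 to 2497 CPM in Utx KO and 2199 to 2290 CPM in WT, which did not overlap. Among them 4 were called higher and 1 lower, where 5.28% of all tested genes were called higher and 5.51% lower. The largest marker sum of other cells was that of 8 stromal or endothelial markers (25.8 to 38.3 CPM in Utx KO and 31.2 to 34.6 CPM in WT), of which Pdgfra, Pdgfrb and Cdh5 were listed at 0 in all 6 libraries. The 3 CD4 T-cell markers summed to 11.1 to 13.1 CPM in Utx KO and 11.5 to 17.5 CPM in WT, with Cd4 at 0, and the 9 myeloid markers to 7.94 to 12.4 CPM in Utx KO and 7.11 to 8.76 CPM in WT, with 6 at 0, among them Lyz2 and Adgre1. Marker sums of B cells (0.571 to 1.85 CPM in Utx KO and 2.76 to 5.47 CPM in WT) and of natural killer cells (1.71 to 3.18 CPM in Utx KO and 4.15 to 4.74 CPM in WT) did not overlap between genotypes. Of these, 4 of 6 B-cell markers and 1 of 4 natural killer cell markers were at 0. The part of these marker levels in the results was not tested. None of the markers of other cell types was called. In such bulk samples, fewer cells that make a transcript and less transcript per cell cannot be told apart.

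IGF1 and IGF2 are secreted growth factors. They bind the IGF1 receptor (Igf1r), a tyrosine kinase closely related to the insulin receptor (Insr), and the activated receptors recruit the docking adaptors Irs1 and Irs2, which pass the signal to phosphoinositide 3-kinase and Akt. Igfbp4 is secreted, holds IGFs away from the receptor and is cut by the protease PAPP-A. Igf2r has no kinase: it carries IGF2 to lysosomes for breakdown and is also the cation-independent mannose 6-phosphate receptor that sorts lysosomal enzymes. In T cells, receptor signalling through phosphoinositide 3-kinase supports growth and nutrient use and keeps FoxO transcription factors out of the nucleus.

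The sequences upstream of the 3 members with the clearest difference in level are shown because the genotypes differ in a chromatin regulator. Each is the 250 bases before the gene's RefSeq start in GRCm38.p6, read 5′ to 3′ on the gene's strand, with matches to the GC box letters GGGCGG (either strand) in capitals. Igfbp4 lies at chr11:99040994-99041243 on the plus strand, Igf1r at chr7:67952007-67952256 on the plus strand and Igf2r at chr17:12769707-12769956 on the minus strand.
Igfbp4: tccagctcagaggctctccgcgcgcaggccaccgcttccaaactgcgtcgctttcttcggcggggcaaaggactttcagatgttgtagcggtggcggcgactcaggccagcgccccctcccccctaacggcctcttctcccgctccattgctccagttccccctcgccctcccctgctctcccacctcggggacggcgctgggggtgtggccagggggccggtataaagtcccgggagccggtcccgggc
Igf1r: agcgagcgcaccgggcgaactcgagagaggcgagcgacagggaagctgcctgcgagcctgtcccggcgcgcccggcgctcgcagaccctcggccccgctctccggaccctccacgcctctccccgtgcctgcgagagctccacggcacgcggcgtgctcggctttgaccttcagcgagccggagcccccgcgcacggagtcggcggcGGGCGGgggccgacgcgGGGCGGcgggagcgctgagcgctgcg
Igf2r: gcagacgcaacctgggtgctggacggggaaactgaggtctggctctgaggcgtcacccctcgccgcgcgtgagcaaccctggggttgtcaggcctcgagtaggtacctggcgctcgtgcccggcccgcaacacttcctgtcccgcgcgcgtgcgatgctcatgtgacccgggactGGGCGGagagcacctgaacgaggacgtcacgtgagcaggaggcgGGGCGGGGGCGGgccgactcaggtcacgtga

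All 3 windows were rich in CpG pairs. The Igf1r window held 42 and was 77.6% G or C, the Igf2r window held 27 and the Igfbp4 window 22, both at 69.2% G or C, against a median of 6 CpG pairs over the same window of 32851 RefSeq promoters. The Igf1r window had as many CpG pairs as, or more than, 99.3% of all promoters, the Igf2r window 92.4% and the Igfbp4 window 86.7%. Irs1 and Irs2, at 28 and 34 CpG pairs, were in the same range, so this density was found also in members whose level differed little or was 0. The GC box letters matched 2 times in Igf1r, 3 times in Igf2r and 0 times in Igfbp4, and at least once in 32.7% of all promoters. Of 4 other motifs searched on both strands, the TCF/LEF core CTTTGA matched once in Igf1r (13.8% of promoters hold it) and the E-box CACGTG matched 2 times in Igf2r (6.02% of promoters). The FoxO core GTAAACA and the T-box core AGGTGTGA had no match in these 3 windows and occur in 3.17% and 1.12% of promoters. No motif match overlapped another. These matches describe letters and not binding sites.

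Igfbp4 (ENSMUSG00000017493, chromosome 11, 99041244 to 99054392 in GRCm38) had the highest level of the 6 genes in Utx KO cells. It was at 341, 384 and 382 CPM in Utx KO libraries 1, 2 and 3, against 67.2, 76.0 and 76.6 CPM in WT libraries 1, 2 and 3. Every Utx KO library lay far above every WT library. The means were 369 ± 24.6 CPM in Utx KO and 73.3 ± 5.26 CPM in WT (SD, n = 3 each), a ratio of 5.04 and a log2 fold change of 2.32 (SE 0.08) on the scale of log2(CPM + 1). These rest on 2150 reads in Utx KO and 475 in WT. Ordered by log2 fold change from the top, Igfbp4 stood at place 9 among the 10590 genes tested. Of the 50-base pieces of its annotated 3' ends, 10.9% occur in transcripts of other genes, so some of its reads could be shared. This is a share of annotated sequence and not of reads. Which of these ends the reads came from was not examined.

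Igf1r (ENSMUSG00000005533, chromosome 7, 67952827 to 68233668), the receptor kinase for IGF1, differed by a similar factor at a lower level. It was at 62.4, 73.1 and 72.3 CPM in Utx KO libraries 1, 2 and 3, against 11.5, 9.68 and 15.3 CPM in WT libraries 1, 2 and 3. Again the groups did not overlap. The means were 69.2 ± 5.98 CPM in Utx KO and 12.2 ± 2.88 CPM in WT (SD, n = 3 each), a ratio of 5.70 and a log2 fold change of 2.44 (SE 0.17). The read numbers were 402 in Utx KO and 78 in WT. The spread between Utx KO libraries was close to the counting error alone, which gives an SD of 6.09 CPM at these depths. Igf1r stood at place 6 from the top by log2 fold change.

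Igf2r (ENSMUSG00000023830, chromosome 17, 12682406 to 12769664), the clearing and sorting receptor, was lower in Utx KO cells. Its level was 83.8, 89.1 and 88.3 CPM in Utx KO libraries 1, 2 and 3, against 127, 122 and 124 CPM in WT libraries 1, 2 and 3. The groups did not overlap, and the libraries within each were closer together than counting error alone would give. That error is an SD of 6.80 CPM in Utx KO and 7.61 CPM in WT, so the closeness is not read as a steady level. The means were 87.1 ± 2.86 CPM in Utx KO and 124 ± 2.24 CPM in WT (SD, n = 3 each), a ratio of 0.702 and a log2 fold change of −0.51 (SE 0.09). Igf2r is imprinted, and the antisense transcript Airn overlaps it on the opposite strand. Airn starts 58905 bases from the annotated 3' end of Igf2r, the end that these libraries read, and is itself not analysed here.

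Insr (ENSMUSG00000005534, chromosome 8, 3122061 to 3279617), the insulin receptor, was measured by few reads. It was at 5.16, 5.71 and 8.65 CPM in Utx KO libraries 1, 2 and 3 (13, 10 and 14 reads), against 5.93, 1.38 and 3.83 CPM in WT libraries 1, 2 and 3 (15, 3 and 7 reads). WT replicate 1 lay inside the Utx KO range, so the groups overlapped. The exact 95% counting interval of WT replicate 2 ran from 0.285 to 4.04 CPM and that of Utx KO replicate 1 from 2.75 to 8.83 CPM; such intervals cover counting error only. The log2 fold change was 0.77 (SE 0.38), and it was 0.35 without WT replicate 2 and 0.42 with a pseudocount of 5 CPM.

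The adaptors differed from each other in presence. Irs2 (ENSMUSG00000038894, chromosome 8, 10984681 to 11008458) was at 16.7, 21.1 and 16.7 CPM in Utx KO libraries 1, 2 and 3, against 12.7, 12.4 and 15.9 CPM in WT libraries 1, 2 and 3. The groups did not overlap, but the lowest Utx KO library and the highest WT library were within 1 counting SD of each other (3.11 CPM in Utx KO and 2.54 CPM in WT). The means were 18.2 ± 2.57 CPM in Utx KO and 13.7 ± 1.92 CPM in WT (SD, n = 3 each), with a log2 fold change of 0.39 (SE 0.21). Irs1 (ENSMUSG00000055980, chromosome 1, 82233101 to 82291416) had 0 reads in all 6 libraries. Over 5887542 reads in Utx KO and 6526938 reads in WT, a count of 0 allows a level of up to 0.51 CPM in Utx KO and 0.46 CPM in WT (3 reads over the group).

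**Figure D1:**
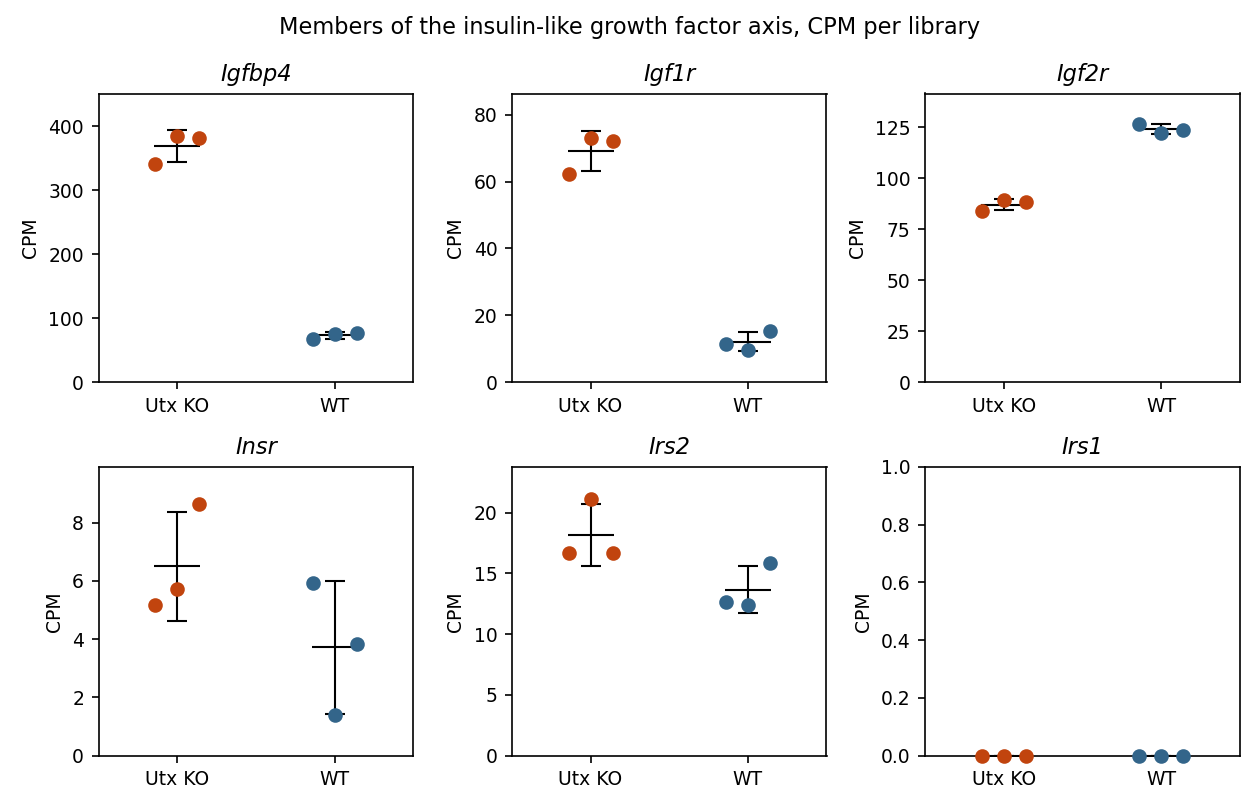
CPM of each member in the 3 Utx KO libraries (left of each panel) and the 3 WT libraries (right); points are libraries in replicate order, bars are the mean and SD, and each panel has its own axis from 0. Igfbp4 and Igf1r lie higher and Igf2r lower in every Utx KO library, Insr overlaps between groups, and Irs1 is at 0 throughout.

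In all, 5 of the 6 members passed the filter on low values (at least 1 CPM in 3 libraries), and Irs1 did not. The groups were apart for 4 of these 5, with 3 higher and 1 lower in Utx KO, where 26.5% of all tested genes had groups that did not overlap (14% higher and 12.6% lower). At a limma adjusted p under 0.05 the called members were Igfbp4 and Igf1r (2 higher, where 5.28% of all tested genes were called higher) and Igf2r (1 lower, where 5.51% were called lower), against 10.8% called in either direction. As the genes were picked with this contrast known, these calls are not evidence of a difference, and nothing is read from those counts. Insr and Irs2 were not called, which does not show that their levels were alike.

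**Figure D2:**
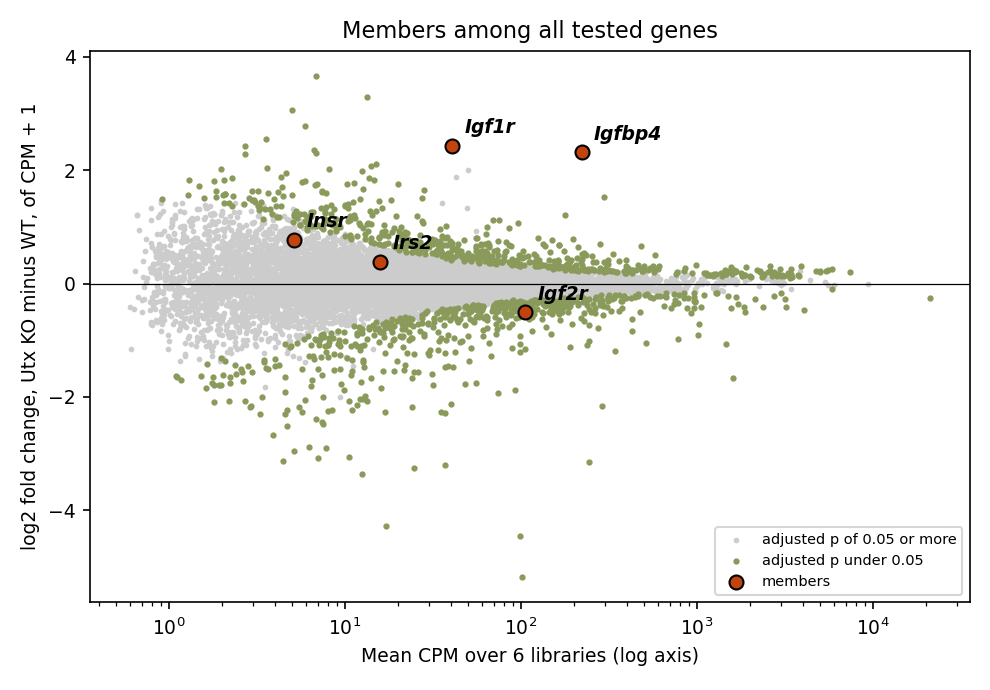
Log2 fold change (Utx KO minus WT, of CPM + 1) against mean CPM over the 6 libraries (log axis) for 10590 tested genes, with the 5 measured members marked. Igfbp4 (2.32) and Igf1r (2.44) lie above nearly all genes of their level, Igf2r (−0.51) lies among the lower called genes, and Insr and Irs2 lie inside the band of genes that were not called.

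The order of the levels differed between the genotypes. A 3' library counts about 1 tag per transcript whatever its length, so CPM of different genes can be set side by side, apart from differences in how well each 3' end is captured. In Utx KO cells the order was Igfbp4, Igf2r, Igf1r, Irs2, Insr and Irs1, and no neighbouring pair overlapped over the 3 libraries. In WT cells it was Igf2r, Igfbp4, Irs2, Igf1r, Insr and Irs1, and there Irs2 (12.4 to 15.9 CPM) and Igf1r (9.68 to 15.3 CPM) overlapped.

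Ratios within a library restate these levels free of the scaling to total reads, and are not separate evidence. Igf1r had 0.744 to 0.821 tags per Igf2r tag in Utx KO libraries and 0.0792 to 0.124 in WT libraries. Per Irs2 tag, Igf1r had 3.46 to 4.33 tags in Utx KO and 0.778 to 0.966 in WT. The ratio of Igfbp4 to Igf2r was 4.07 to 4.33 in Utx KO, against 0.531 to 0.623 in WT. None of these 3 ratios overlapped between the genotypes. For the ratios to Igf2r this had to follow from the levels above. There Igfbp4 and Igf1r were higher and Igf2r lower in every Utx KO library than in any WT library. The ratio of Igfbp4 to Igf1r was 5.26 to 5.46 in Utx KO and 5 to 7.86 in WT, and those ranges overlapped. Igf1r exceeded Insr in every library, by 8.36 to 12.8 times in Utx KO and by 1.93 to 7 times in WT. The 2 ranges did not overlap, but Insr had only 3 to 15 reads in WT libraries.

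**Figure D3:**
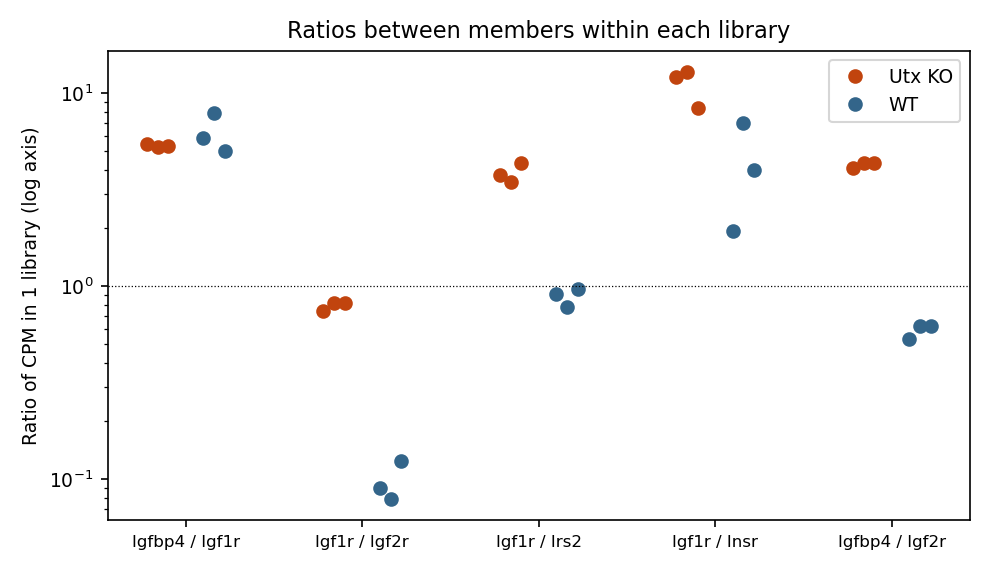
Ratio of the CPM of a pair of members within each library (log axis), Utx KO left and WT right for each pair; each point is 1 library and the dotted line marks equal values. The Igfbp4 to Igf1r ratio overlaps between genotypes. The ratios of Igf1r to Igf2r, to Irs2 and to Insr (few reads) and of Igfbp4 to Igf2r do not.

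Among libraries of a genotype, Igf2r varied least and Igf1r more in WT. The spread of Igf2r lay below the counting error given above. The coefficient of variation was 6.66% in Utx KO and 7.18% in WT for Igfbp4, 8.63% in Utx KO and 23.7% in WT for Igf1r, and 3.28% in Utx KO and 1.81% in WT for Igf2r. It was 14.2% in Utx KO and 14.1% in WT for Irs2, and 28.8% in Utx KO and 61.3% in WT for Insr. In Utx KO replicate 1 the level was the lowest of the 3 Utx KO libraries for 4 of the 5 measured members, all but Irs2, and this library was the deepest of the Utx KO libraries at 2517655 reads. Its part in the values was not tested.

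The genes with the most similar profile to each member were found by Pearson's r of log2(CPM + 1) over the 6 libraries, among 7452 genes (7453 for Insr) with a mean of at least 10 CPM. All values share the same libraries and the difference between genotypes, so r is a description. For Igfbp4 they were Dnpep, Ptpn6 and Klf2 (r = 0.999, 0.998 and 0.998). Dnpep, the nearest, was at 35.6 ± 0.55 CPM in Utx KO and 26.4 ± 0.37 CPM in WT (SD, n = 3 each). Klf2, a transcription factor of resting T cells, was at 95.8 ± 3.37 CPM in Utx KO and 43.4 ± 0.67 CPM in WT (SD, n = 3 each). Ptpn6, the phosphatase SHP-1 that restrains antigen receptor signals, was at 204 ± 7.12 CPM in Utx KO and 127 ± 3.94 CPM in WT; its 3' end and that of Zyx overlap genes on the opposite strand. For Igf1r they were Hmg20b, Naa10 and Lef1 (r = 0.999, 0.999 and 0.997). Hmg20b was at 71.8 ± 1.63 CPM in Utx KO and 47.8 ± 2.09 CPM in WT. Naa10 was at 127 ± 2.18 CPM in Utx KO and 97.4 ± 3.34 CPM in WT. Lef1, a partner of β-catenin found in unstimulated T cells, was at 248 ± 21.0 CPM in Utx KO and 107 ± 11.6 CPM in WT. Igf2r was nearest to Zyx, Dusp2 and Gpd2 (r = 0.998 each). Zyx was at 58.6 ± 1.24 CPM in Utx KO and 80.5 ± 2.16 CPM in WT. Dusp2, a phosphatase of MAP kinases, was at 30.3 ± 3.78 CPM in Utx KO and 118 ± 15.7 CPM in WT. Gpd2 was at 68.2 ± 3.82 CPM in Utx KO and 131 ± 3.26 CPM in WT. The less abundant members gave lower values, with Aftph, Mettl4 and Zmym2 for Insr (r = 0.989, 0.985 and 0.984) and Arf5, Mta1 and Lsm14b for Irs2 (r = 0.989, 0.985 and 0.982).

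Neighbouring genes were also compared, in a window of 250 kb on either side that was chosen after the values were seen. Over all 6 members, 21 neighbours were tested and 3 were called at a limma adjusted p under 0.05, all higher in Utx KO, where 5.28% of all tested genes were called higher. With so few neighbours nothing is read from this count. Near Igfbp4, 2 of 9 tested neighbours rose. Ccr7, the homing receptor for lymph nodes, lies 89.8 kb away and was at 175 ± 4.30 CPM in Utx KO and 119 ± 7.12 CPM in WT (SD, n = 3 each; log2 fold change 0.56, limma adjusted p = 3.44e-05). Smarce1, a subunit of the BAF chromatin remodelling complex, rose by 0.23 (limma adjusted p = 0.0269), a call lost with DESeq2 (adjusted p = 0.151) and without any 1 library other than Utx KO replicate 2 (limma adjusted p 0.0610 to 0.119). Top2a, at 17.1 kb the nearest tested neighbour of Igfbp4, had a log2 fold change of 0.01 (limma adjusted p = 0.933). The only tested neighbour of Igf1r, Fam169b, was at 43.6 ± 8.56 CPM in Utx KO and 40.4 ± 5.88 CPM in WT (SD, n = 3 each; limma adjusted p = 0.776). Near Igf2r, 1 of 5 rose, the mitochondrial superoxide dismutase Sod2 (log2 fold change 0.42, limma adjusted p = 0.0108), a call lost with DESeq2 (adjusted p = 0.1) and without Utx KO replicate 1 (limma adjusted p = 0.0512) or WT replicate 1 (0.0618).

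The wider pathway was followed in 11 lists written from general knowledge, but with earlier results of these data known. They held 137 genes without the 6 members, of which 124 had reads and 113 could be tested. Among those tested, 16 rose and 11 fell (limma adjusted p under 0.05), or 23.9%, against 10.8% of all tested genes. As the lists were not chosen blind to these data, nothing is read from the difference between these shares. The same holds for the share of each list below. The median log2 fold change was −0.01 over the lists and 0.01 over all tested genes. Without Utx KO replicate 2 there were 9 rises and without WT replicate 2 there were 8, and DESeq2 gave 6.

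Ligand transcripts were almost absent. Igf2, Ins1 and Ins2 had 0 reads in all libraries, and Igf1 had 1 read, in Utx KO replicate 2. Other binding proteins were near the limit of detection. Igfbp7 had 10 reads in Utx KO and 2 in WT and did not pass (limma adjusted p = 0.162), but passed when no filter on low values was used (limma adjusted p = 0.0481). Igfbp3 had 2 reads in Utx KO and 0 in WT, Igfbp5 had 2 in Utx KO and 1 in WT, Igfbp6 had 0 in Utx KO and 1 in WT, and Igfbp1 and Igfbp2 had none. No binding protein in the list exceeded 3.09 CPM in any library, the value of Igfbp7 in Utx KO replicate 3. The protease PAPP-A (Pappa), which cuts Igfbp4, had 0 reads, and its relative Pappa2 had 0 reads in Utx KO and 2 in WT.

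The stanniocalcins, secreted proteins that block PAPP-A, were both higher in Utx KO. Stc1 was at 21.8, 20.0 and 25.3 CPM in Utx KO libraries, against 9.49, 11.5 and 13.1 CPM in WT libraries, with no overlap (log2 fold change 0.92, SE 0.21, limma adjusted p = 0.00484). With DESeq2 its adjusted p was 0.0550. Stc2 was at 30.7 ± 2.09 CPM in Utx KO and 20.1 ± 4.27 CPM in WT (SD, n = 3 each; log2 fold change 0.61, limma adjusted p = 0.0327). The call of Stc2 was lost with DESeq2 (adjusted p = 0.248) and without Utx KO replicate 1 (limma adjusted p = 0.0535), Utx KO replicate 2 (0.125), Utx KO replicate 3 (0.0601) or WT replicate 2 (0.204). Of the 12 genes in this list 3 were tested, and 2 rose, or 66.7%, against 10.8% of all tested genes.

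Of 4 tested genes for receptor relatives and maturation, 1 rose and 1 fell, or 50%, against 10.8% of all tested genes. Furin, the protease that cuts the precursors of Igf1r and Insr into their subunits, fell to 17.2 ± 5.17 CPM in Utx KO, against 28.1 ± 3.42 CPM in WT (SD, n = 3 each; log2 fold change −0.71, limma adjusted p = 0.0254). This call was lost with DESeq2 (adjusted p = 0.222) and without Utx KO replicate 2 (limma adjusted p = 0.0694), Utx KO replicate 3 (0.136), WT replicate 2 (0.134) or WT replicate 3 (0.0747). Rack1, a ribosomal scaffold that also binds Igf1r, rose to 1557 ± 72.8 CPM in Utx KO, against 1325 ± 18.0 CPM in WT (log2 fold change 0.23, limma adjusted p = 0.000498); its 3' end overlaps Trim41 on the opposite strand.

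The other adaptors split in the same way, with 1 rise and 1 fall among 10 tested, or 20%, against 10.8% of all tested genes. Gab2, a docking protein that recruits phosphoinositide 3-kinase, was at 11.6 ± 2.84 CPM in Utx KO and 5.38 ± 2.57 CPM in WT (SD, n = 3 each; log2 fold change 1.04, limma adjusted p = 0.0366). The Gab2 call was lost with DESeq2 (adjusted p = 0.260), with a pseudocount of 0.1 (limma adjusted p = 0.0511), with no filter (0.0637) and without Utx KO replicate 1 (0.0966), Utx KO replicate 3 (0.150), WT replicate 2 (0.215) or WT replicate 3 (0.0603). Its relative Gab3 fell to 12.6 ± 3.48 CPM in Utx KO, against 25.3 ± 4.42 CPM in WT (log2 fold change −0.97, limma adjusted p = 0.00474).

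Among 15 tested brakes on receptor signalling, 1 rose and 2 fell, or 20%, against 10.8% of all tested genes. Ptpn1 encodes PTP1B, the phosphatase that removes activating phosphates from the insulin and IGF1 receptors. It was at 400, 415 and 358 CPM in Utx KO libraries, against 262, 267 and 289 CPM in WT libraries, with no overlap (log2 fold change 0.52, SE 0.07, limma adjusted p = 7.56e-06). Dok2, an adaptor that dampens tyrosine kinase signals, fell to 58.9 ± 6.25 CPM in Utx KO, against 91.7 ± 2.61 CPM in WT (SD, n = 3 each; limma adjusted p = 0.000226). The ubiquitin ligase Cblb fell by 0.45 on the log2 scale (limma adjusted p = 0.0286), a call lost with DESeq2 (adjusted p = 0.233) and without Utx KO replicate 2 (limma adjusted p = 0.116), Utx KO replicate 3 (0.0851), WT replicate 1 (0.0914) or WT replicate 3 (0.123).

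Of 13 tested genes of phosphoinositide 3-kinase and lipid phosphatases, 3 fell and 3 rose, or 46.2%, against 10.8% of all tested genes. All 3 falls were subunits of the kinase, but its other tested subunits did not all lie lower. Pik3r2, a regulatory subunit, was at 11.0 ± 1.65 CPM in Utx KO and 5.70 ± 0.999 CPM in WT, with no overlap. Its log2 fold change was 0.84, just short of a call (limma adjusted p = 0.0525). Pik3ca (log2 fold change 0.13), Pik3cb (−0.16) and Pik3r5 (−0.02) were not called. These other subunits were named after their values were seen. Pik3cd, the catalytic subunit p110δ of lymphocytes, fell to 688 ± 44.4 CPM in Utx KO, against 868 ± 16.3 CPM in WT (SD, n = 3 each; log2 fold change −0.34, limma adjusted p = 5.7e-05). The regulatory subunit Pik3r1 fell by 0.46 (limma adjusted p = 0.00113) and the catalytic subunit Pik3cg by 0.76 on the log2 scale (limma adjusted p = 0.00553).

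The 3 rises in that list numbered 1 with DESeq2 and without Utx KO replicate 2, Utx KO replicate 3 or WT replicate 2. The count was 4 with a pseudocount of 5, with edgeR and with limma-voom. Inpp4b, a lipid phosphatase, rose to 262 ± 33.6 CPM in Utx KO, against 182 ± 23.6 CPM in WT (SD, n = 3 each; log2 fold change 0.52, limma adjusted p = 0.000323). Pik3ip1, a membrane inhibitor of the kinase that was named after its values were seen, was at 26.9 ± 8.13 CPM in Utx KO and 15.1 ± 0.82 CPM in WT (log2 fold change 0.75, limma adjusted p = 0.0242). That call was lost with DESeq2 (adjusted p = 0.130) and without Utx KO replicate 2 (limma adjusted p = 0.169), Utx KO replicate 3 (0.0964), WT replicate 1 (0.0670) or WT replicate 2 (0.0653).

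Of 22 tested genes of Akt and the mTOR complexes, 1 passed: Sgk1, a kinase related to Akt, fell to 11.5, 9.14 and 6.79 CPM in Utx KO libraries, against 36.8, 28.1 and 21.3 CPM in WT libraries, with no overlap (log2 fold change −1.54, SE 0.24, limma adjusted p = 5.7e-05). Akt1 was at 206 ± 4.67 CPM in Utx KO and 213 ± 7.43 CPM in WT (SD, n = 3 each), and was named after its value was seen. Of 14 tested genes of the Ras and MAP kinase branch, 1 passed (7.14%, against 4.55% of the Akt and mTOR list and 10.8% of all tested genes): Mapk3 (ERK1) rose by 0.38 on the log2 scale (limma adjusted p = 0.0187), a call lost with DESeq2 (adjusted p = 0.132) and without Utx KO replicate 2 (limma adjusted p = 0.132), WT replicate 1 (0.0824) or WT replicate 2 (0.0577).

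Of 16 tested FoxO factors and genes that depend on them in T cells, 7 rose and 2 fell, or 56.2%, against 10.8% of all tested genes. This list too was chosen with earlier results of these data known, so its share is only a description. Klf2 rose to 92.1, 98.8 and 96.4 CPM in Utx KO libraries, against 43.9, 43.8 and 42.7 CPM in WT libraries (log2 fold change 1.12, SE 0.11, limma adjusted p = 7.88e-08). Cdkn1b, the cell cycle inhibitor p27, rose to 145 ± 5.70 CPM in Utx KO, against 110 ± 13.2 CPM in WT (SD, n = 3 each; log2 fold change 0.41, limma adjusted p = 0.00428), and Ccr7 is given above. The falls were Bcl2l11, which encodes the death factor Bim, at 76.9 ± 3.73 CPM in Utx KO and 117 ± 18.3 CPM in WT (log2 fold change −0.59, limma adjusted p = 0.000498), and Foxo1 itself, named after its value was seen. Foxo1 was at 90.2 ± 11.1 CPM in Utx KO and 115 ± 4.17 CPM in WT (log2 fold change −0.36, limma adjusted p = 0.0200). DESeq2 did not call Foxo1 (adjusted p = 0.107), and the limma call was lost without Utx KO replicate 1 (limma adjusted p = 0.0926), Utx KO replicate 2 (0.0536), WT replicate 1 (0.0832) or WT replicate 3 (0.0649). The rises in this list numbered 3 without Utx KO replicate 2, 4 without WT replicate 2 and 3 with DESeq2. The median log2 fold change of this list was 0.17, against 0.01 over all tested genes.

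Among 14 tested partners of Igf2r in mannose 6-phosphate sorting, 0 were called by limma, edgeR, DESeq2 or limma-voom, and 4 had an unadjusted limma p under 0.05. Over all 10590 tested genes, 10.8% were called by limma and 2408 had an unadjusted limma p under 0.05, so nothing is read from those 4. The other mannose 6-phosphate receptor, M6pr, was at 67.2 ± 3.89 CPM in Utx KO and 68.7 ± 5.71 CPM in WT (SD, n = 3 each), and was named after its value was seen. Among the proteins that bind IGF messenger RNA, Igf2bp2 fell to 24.2, 21.7 and 24.7 CPM in Utx KO libraries, against 43.9, 51.1 and 44.9 CPM in WT libraries, with no overlap (log2 fold change −0.96, SE 0.15, limma adjusted p = 7.82e-05). Igf2bp3 had few reads (48 in Utx KO and 30 in WT) and did not pass (limma adjusted p = 0.284).

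**Figure D4:**
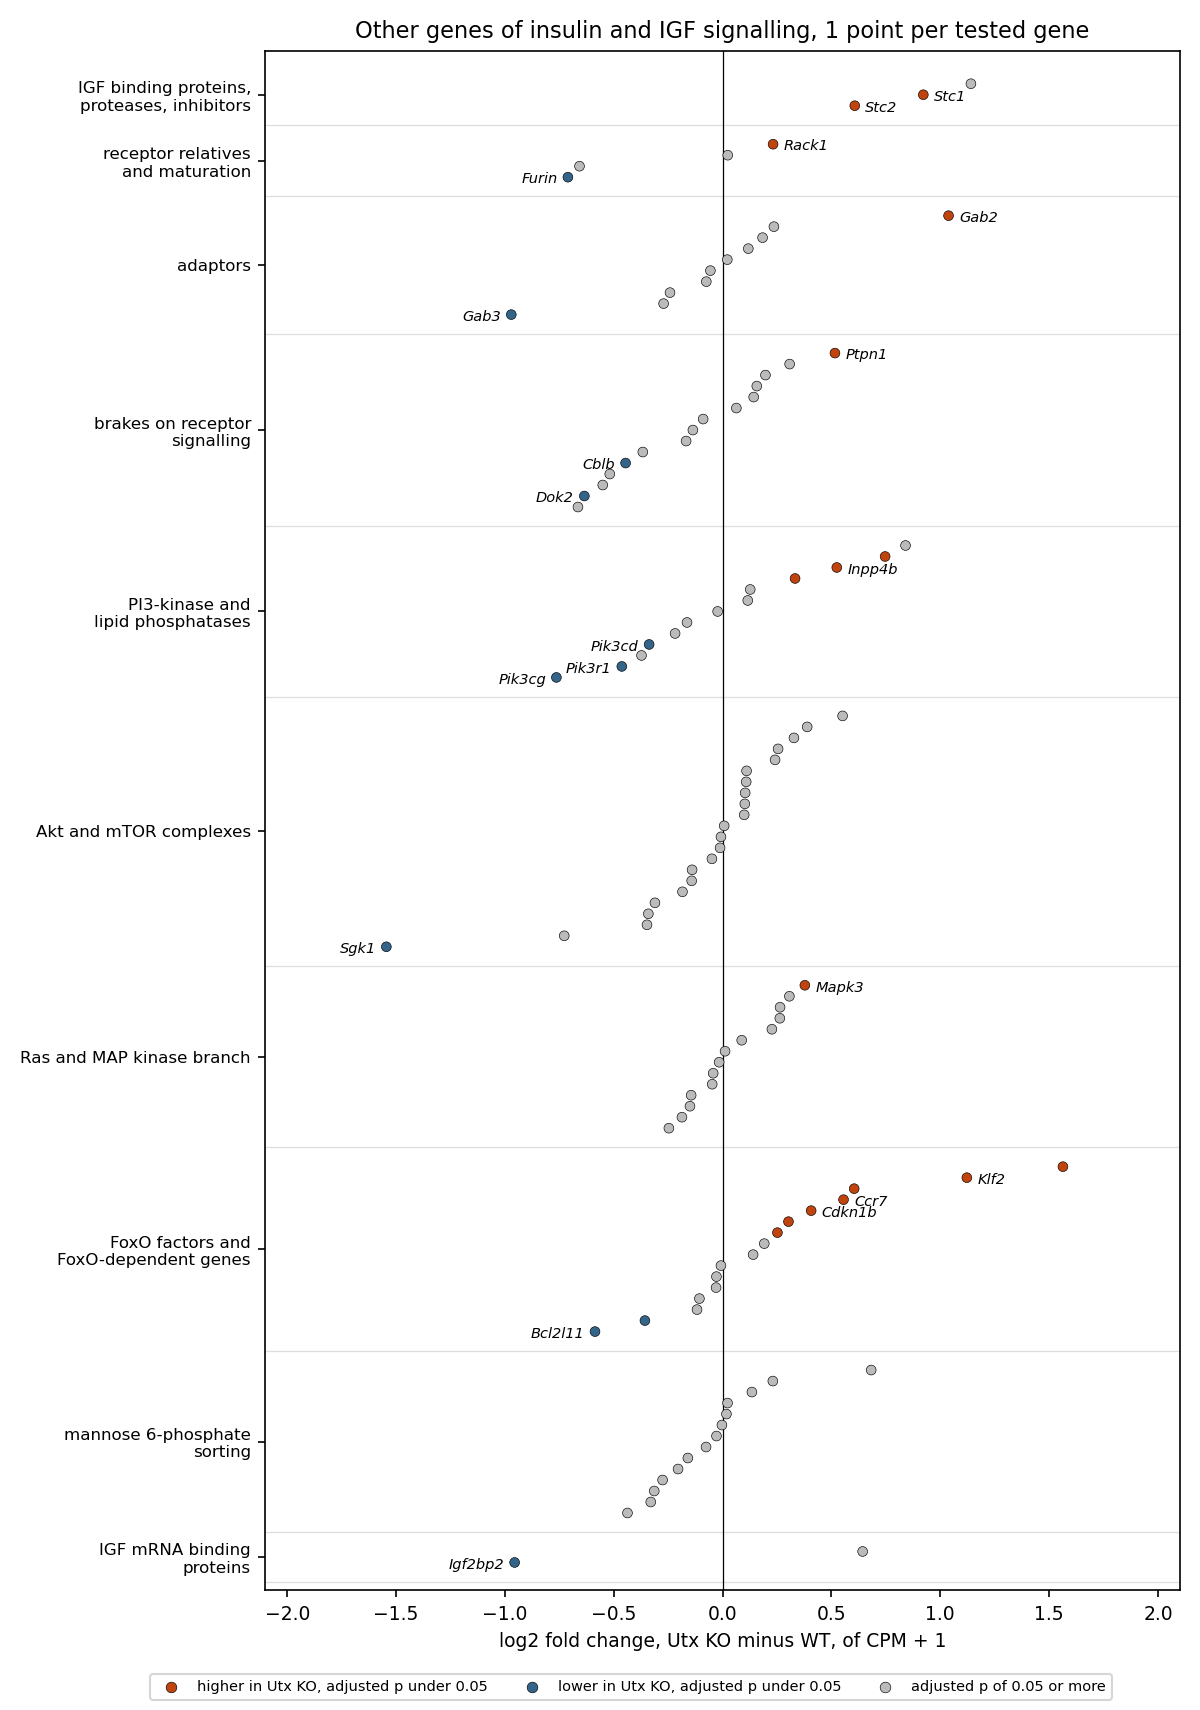
Log2 fold change (Utx KO minus WT, of CPM + 1) of each of 113 tested pathway genes other than the members, by list; coloured points passed a limma adjusted p under 0.05, 16 higher and 11 lower, and up to 4 of them per list are named. Sgk1 (−1.54) lies farthest to the left, and the called kinase subunits Pik3cd, Pik3r1 and Pik3cg lie to the left of 0. The kinase subunit Pik3r2 (0.84), which was not called, lies to the right of 0.

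The members' differences held their direction under each of 15 other settings. Among these, the changes of filter and the replicate block could not move a log2 fold change in this balanced design. For Igfbp4, Igf1r, Igf2r and Irs2 the groups did not overlap. There, leaving out a library or changing the pseudocount could not reverse the direction, so only the size of the change is informative. The log2 fold change ran from 2.26 to 2.37 for Igfbp4, from 2.12 to 2.60 for Igf1r and from −0.52 to −0.48 for Igf2r. Insr was the least stable, from 0.35 to 1.12, and Irs2 ran from 0.28 to 0.49.

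**Figure D5:**
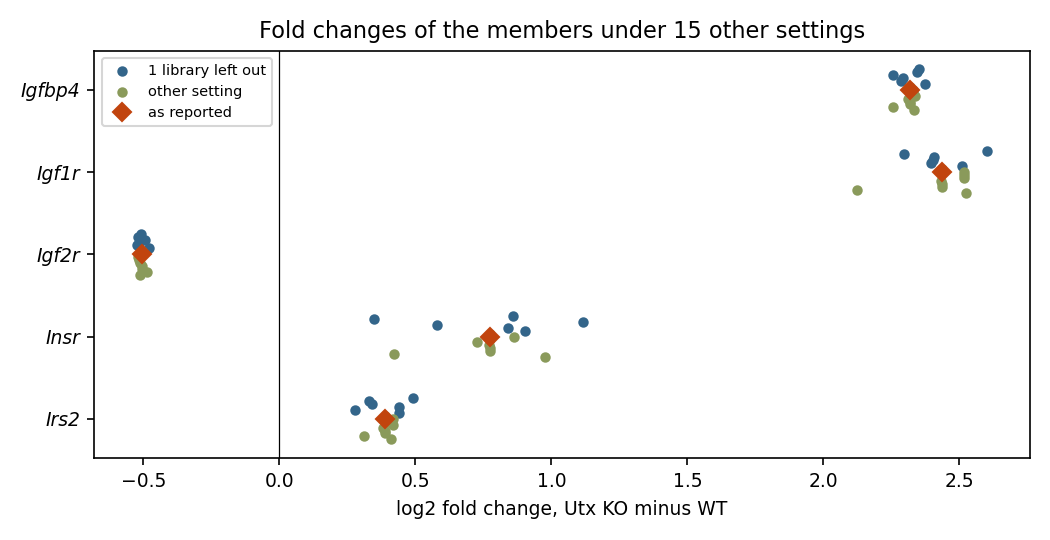
Log2 fold change (Utx KO minus WT) of the 5 measured members as reported (diamonds), with 1 library left out (blue) and under 9 other settings (green). The values of Igfbp4, Igf1r and Igf2r stay close together, and those of Insr spread from 0.35 to 1.12.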

How the data were processed

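Expression was measured in 6 libraries, 3 labelled Utx KO and 3 labelled WT, with QuantSeq 3' mRNA sequencing. The authors deposited a table of CPM values per library, with each gene's reads scaled to the library total, per the file headers. Builds GRCm 38 and mm 10 are named in the submitters' processing notes; the sources used here name no aligner, counter or strand setting. Dividing by the value of a single read returned whole reads for 100% of values above 0 (tolerance 0.001 reads). Symbols were matched for 25600 of 25655 identifiers.

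Values were tested as log2(CPM + 1) with limma-trend (limma 3.58.1, R 4.3.3) and genotype as the only term, over 10590 genes with at least 1 CPM in 3 libraries. Tests were two-sided, with Benjamini-Hochberg adjustment over all these genes and a threshold of 0.05. On the recovered reads, edgeR 4.0.16 (quasi-likelihood) called 546 higher and 560 lower, and DESeq2 1.42.0 called 241 higher and 310 lower. The log2(CPM + 1) scale understates fold changes of low genes. The fits were tested on simulated data. Other alternatives were a pseudocount of 0.1 or 5, no filter or one of 5 CPM, TMM scaling, limma-voom, a replicate block and leaving out each library.

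The members and the 11 pathway lists (137 genes, 2 of which, H19 and Airn, were not analysed here) were chosen with earlier results of these data known. Named genes are the members, ligands and binding proteins with reads, up to 4 called genes per other list by lowest p, Kdm6a, and for each member the 3 genes most similar in profile. Genes outside that rule were named after their values were seen. They were Pik3ip1, Pik3r2, Pik3ca, Pik3cb, Pik3r5, Foxo1, Akt1, M6pr, Igf2bp3, the neighbours, and genes with 0 reads (Igf2, Ins1, Ins2, Igfbp1, Igfbp2 and Pappa). Gene positions come from GENCODE M21 (GRCm38) and promoters from RefSeq (GRCm38.p6), whose table held 5 of the 6 members.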

Additional observations from a re-analysis of the deposited data

How the results depend on the processing

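All 5 measured members kept their direction under all 15 alternatives, of which the changes of filter and the replicate block could not alter it. For Igfbp4, Igf1r, Igf2r and Irs2 the groups did not overlap. There, leaving out a library or changing the pseudocount could not reverse the direction either, so nothing is read from its holding. Igf1r had a log2 fold change of 2.12 with a pseudocount of 5, against 2.44 as reported. DESeq2 called 241 genes higher and 310 lower, against 559 and 583 with limma, and 6 pathway genes higher, against 16. With 1 library left out, 362 to 473 genes were called higher and 392 to 569 lower, and 8 to 13 pathway genes higher and 8 to 10 lower. The lowest counts of rises came without WT replicate 2. Same-numbered Utx KO and WT libraries did not deviate together (r of −0.01 to 0.01 over 3 pairs). No library correlated best with the same-numbered library of the other genotype. The numbers were therefore not used as a pairing in the main fit. Such small correlations over 3 pairs cannot show whether same-numbered libraries were handled together. With a replicate block, 515 genes were called higher and 550 lower, and among pathway genes 16 and 11. The block left the members' log2 fold changes at 2.32 for Igfbp4, 2.44 for Igf1r, −0.51 for Igf2r, 0.77 for Insr and 0.39 for Irs2. It could not do otherwise, as each replicate number occurs once in each genotype. Igfbp7 had a value under 12 alternatives and none with the filter of 5 CPM, edgeR or limma-voom. Depth limits Insr (37 reads in Utx KO and 25 in WT) and Irs1 (0 reads). The causes of these changes were not tested.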
